A study of Mus musculus with 24 samples.

Results

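The genes described here are 9 mouse genes of the p53 response: Trp53, which encodes p53 itself, and Cdkn1a, Mdm2, Ccng1, Phlda3, Trp53inp1, Bax, Perp and Gadd45a, which p53 is known to switch on. Members were taken by gene symbol from the array annotation, with every probe that carries the symbol, out of 16593 genes and 25697 probes. Of the 9 members 7 had a named probe, 16 probes in all, and 6 were tested among 8932 genes whose probe was detected on both arrays of at least 1 group. No probe was named for Trp53 or Bax in the annotation used, so neither is analysed here. Perp, which encodes a desmosomal protein linked to p53-dependent apoptosis, had 1 probe, and it was detected on 0 of 24 arrays with a smallest detection p of 0.0489, so Perp was not well above background anywhere and was not tested.

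The study compared 24 arrays of mouse pluripotent lines, 2 in each of 12 groups, which the series text calls biological replicates. Embryonic stem (ES) cells were male (ESCm) or female of the OG2 line (ESCf), and epiblast stem cells (EpiSCs) were OG2 female (EpiSCf) or GOF18 male (EpiSCm). F9 EC and P19 EC are male embryonal carcinoma lines. A group overexpressing wild type Sox2, a transcription factor of pluripotent cells, came from F9 (F9-Sox2), P19 (P19-Sox2), EpiSCf (Epi-Sox2f) and EpiSCm, the last kept in EpiSC medium (EpiSox2mL2) or in ESC medium as the cultures ESC like1 (EpiSox2mE1) and ESC like2 (EpiSox2mE2). The sources used here give no Sox2 promoter or vector, no number of clones, no Trp53 genotype and no DNA-damaging treatment for any group. EpiSox2mE1 and EpiSox2mE2 differ from EpiSox2mL2 in medium, and as they carry their own labels, a culture and its medium cannot be told apart.

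The p53 protein is a transcription factor that accumulates after DNA damage and other stresses and binds response elements near its targets. Mdm2 is the ubiquitin ligase that marks p53 for degradation and is itself a p53 target, which closes a negative feedback loop. Cdkn1a encodes p21, an inhibitor of cyclin-dependent kinases, and pluripotent mouse cells are known for a short G1 phase and a weak p21 response.

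RefSeq promoter windows of GRCm38.p6, from 250 bases before to 50 bases after a start, were matched by symbol for 7 of the 9 members, and those of the measured members are printed because p53 acts on its targets through elements of this kind. Capitals mark exact matches to the p53 half-site, the palindromic unit that occurs in pairs in a response element, searched on both strands. Cdkn1a has a pair of start sites on chromosome 17 (plus strand), at chr17:29090729-29091028 and chr17:29093519-29093818. Mdm2 lies on chromosome 10 (minus strand, chr10:117710709-117711008) and Ccng1 on chromosome 11 (minus strand, chr11:40755237-40755536). Gadd45a lies on chromosome 6 (minus strand, chr6:67037358-67037657) and Phlda3 on chromosome 1 (plus strand, chr1:135765835-135766134).
Cdkn1a, start site 1: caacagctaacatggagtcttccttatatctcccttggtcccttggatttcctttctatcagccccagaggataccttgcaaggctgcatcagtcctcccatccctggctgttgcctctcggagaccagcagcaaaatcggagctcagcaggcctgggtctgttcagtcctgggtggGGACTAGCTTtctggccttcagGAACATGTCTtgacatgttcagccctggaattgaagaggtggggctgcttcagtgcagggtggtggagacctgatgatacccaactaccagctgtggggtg
Cdkn1a, start site 2: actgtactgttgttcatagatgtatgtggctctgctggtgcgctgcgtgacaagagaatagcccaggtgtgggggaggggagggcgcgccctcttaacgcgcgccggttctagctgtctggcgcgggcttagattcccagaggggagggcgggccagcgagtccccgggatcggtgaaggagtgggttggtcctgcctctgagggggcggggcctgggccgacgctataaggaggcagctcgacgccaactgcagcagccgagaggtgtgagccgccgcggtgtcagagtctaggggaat
Mdm2: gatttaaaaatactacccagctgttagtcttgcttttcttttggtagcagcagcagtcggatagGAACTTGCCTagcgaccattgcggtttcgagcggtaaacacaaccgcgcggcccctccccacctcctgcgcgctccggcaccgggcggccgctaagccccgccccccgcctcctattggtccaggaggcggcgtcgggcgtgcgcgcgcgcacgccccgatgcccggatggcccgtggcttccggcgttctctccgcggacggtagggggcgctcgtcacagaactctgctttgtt
Ccng1: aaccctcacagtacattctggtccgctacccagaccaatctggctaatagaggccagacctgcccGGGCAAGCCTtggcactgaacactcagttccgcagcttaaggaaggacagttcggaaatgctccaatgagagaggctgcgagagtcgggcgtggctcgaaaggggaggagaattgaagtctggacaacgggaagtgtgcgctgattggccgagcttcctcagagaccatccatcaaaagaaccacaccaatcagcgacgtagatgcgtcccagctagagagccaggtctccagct
Gadd45a: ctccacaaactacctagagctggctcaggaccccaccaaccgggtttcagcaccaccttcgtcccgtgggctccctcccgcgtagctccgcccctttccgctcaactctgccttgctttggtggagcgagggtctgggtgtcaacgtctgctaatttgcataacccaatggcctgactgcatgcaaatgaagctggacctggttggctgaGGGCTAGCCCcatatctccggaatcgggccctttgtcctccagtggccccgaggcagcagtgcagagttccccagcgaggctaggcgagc
Phlda3: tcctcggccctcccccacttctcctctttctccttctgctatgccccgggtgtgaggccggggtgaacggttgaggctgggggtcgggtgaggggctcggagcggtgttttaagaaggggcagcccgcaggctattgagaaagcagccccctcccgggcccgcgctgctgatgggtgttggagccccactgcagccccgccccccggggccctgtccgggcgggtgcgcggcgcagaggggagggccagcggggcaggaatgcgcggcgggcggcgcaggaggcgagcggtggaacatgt
The first Cdkn1a window held 2 matches, GGACTAGCTT and GAACATGTCT, which began 73 and 51 bases before the start, and the second window held 0. Mdm2 held GAACTTGCCT 186 bases before its start, Ccng1 held GGGCAAGCCT 185 bases before its start, and Gadd45a held GGGCTAGCCC 40 bases before its start. The Phlda3 window held 0. A match occurred in 8.36% of all 32851 promoter windows of this length. These are matches of letters in a fixed window, and response elements known outside it, such as the one in the first intron of Mdm2, are not covered.

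All values are log2 normalized intensities, and each gene is represented by its detected probe of highest mean. The correlation between arrays of a group was 0.986 to 0.995, and the median SD of the 6 tested members was 0.06 to 0.24 by group. The GOF18 male EpiSC family (EpiSCm, EpiSox2mL2, EpiSox2mE1 and EpiSox2mE2) stood apart in brightness, with a median raw signal of 90.2 to 101.1 over 8 arrays, against 118.6 to 152.2 for the remaining 16. In comparisons of that family with other lines, the line and the array set cannot be told apart. The Sox2 level, which checks the labels, was higher than in the parent line for F9-Sox2, P19-Sox2, EpiSox2mL2, EpiSox2mE1 and EpiSox2mE2 (log2 0.82 to 1.30), but not on the arrays labelled Epi-Sox2f (log2 -0.18, limma adjusted p = 0.32). Limma gave each comparison an adjusted p over all tested genes, with a call at adjusted p under 0.05, and since all groups have 2 arrays the SE of a log2 difference depends on the gene alone. That SE was 0.12 for Mdm2, 0.16 for Cdkn1a, Ccng1 and Trp53inp1, 0.22 for Phlda3 and 0.14 for Gadd45a. Fewer expressing cells and less RNA per cell cannot be told apart in such bulk samples.

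**Figure D1:**
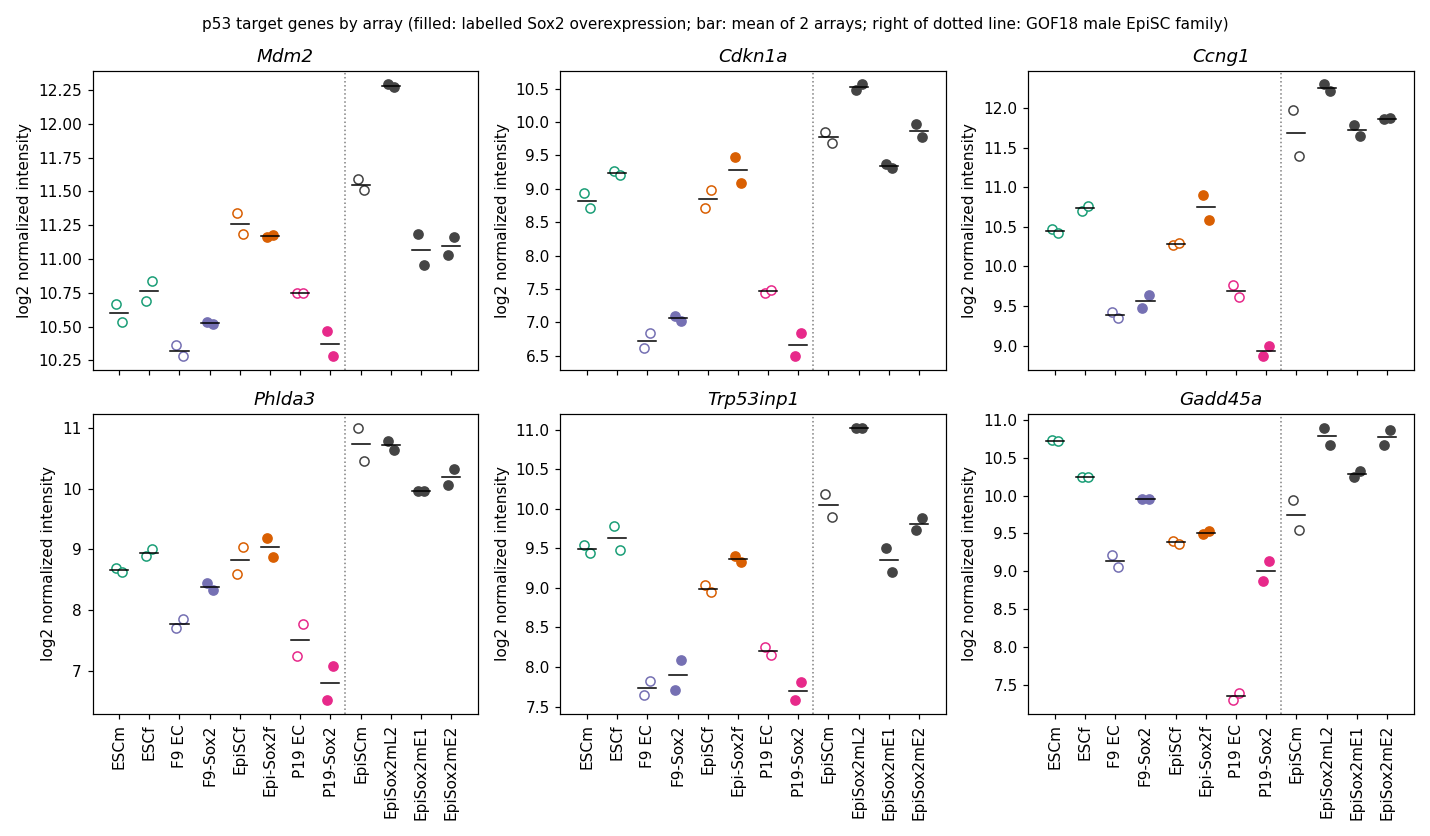
Log2 normalized intensity of the 6 tested p53 target genes on each of the 24 arrays, by group, with a bar at the mean of the 2 arrays and filled points for groups labelled as overexpressing Sox2. Mdm2 reached 12.28 in EpiSox2mL2, and Gadd45a was lowest in P19 EC at 7.35.

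The level of all 6 genes varied widely over the 12 groups, and on the probe used the lowest group of each order was an embryonal carcinoma line. Cdkn1a group means spanned 3.86 log2 units, Ccng1 3.33, Trp53inp1 3.32, Phlda3 3.93, Gadd45a 3.43 and Mdm2 1.96. On that probe EpiSox2mL2 was highest for 5 genes, and for Phlda3 EpiSCm (10.73) and EpiSox2mL2 (10.72) overlapped at the top. P19-Sox2 was lowest for Cdkn1a, Ccng1, Phlda3 and Trp53inp1, F9 EC for Mdm2 and P19 EC for Gadd45a. Other probes gave another top group for 3 genes. ESCf was highest on the other Trp53inp1 probe, where EpiSox2mE1 was lowest, and on 1 other Cdkn1a probe, and EpiSox2mE2 was highest on the other Gadd45a probe.

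Mdm2 ran from EpiSox2mL2 (12.28 ± 0.01, SD, n = 2) through EpiSCm (11.55 ± 0.06) and EpiSCf (11.26 ± 0.11) to Epi-Sox2f (11.17 ± 0.01), EpiSox2mE2 (11.10 ± 0.10) and EpiSox2mE1 (11.07 ± 0.16). ESCf (10.76 ± 0.11), P19 EC (10.75 ± 0.00), ESCm (10.60 ± 0.09), F9-Sox2 (10.53 ± 0.01), P19-Sox2 (10.37 ± 0.13) and F9 EC (10.32 ± 0.06) followed. Epi-Sox2f, EpiSox2mE2 and EpiSox2mE1 overlapped as neighbours, as did ESCf with P19 EC and P19-Sox2 with F9 EC, and every other pair of neighbours was separated on both arrays. On this probe every EpiSC-derived group lay above every ES and embryonal carcinoma group, but on the other well detected probe Epi-Sox2f (10.23) lay below ESCm (10.60) and ESCf (10.48).

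Cdkn1a was also highest in EpiSox2mL2 (10.52 ± 0.06), followed by EpiSox2mE2 (9.87 ± 0.14) and EpiSCm (9.77 ± 0.12), whose arrays overlapped. EpiSox2mE1 (9.34 ± 0.04), Epi-Sox2f (9.28 ± 0.27) and ESCf (9.24 ± 0.05) overlapped in turn, and so did EpiSCf (8.85 ± 0.19) with ESCm (8.82 ± 0.16). A gap of more than 1 log2 unit separated these groups from P19 EC (7.46 ± 0.02), F9-Sox2 (7.06 ± 0.06), F9 EC (6.73 ± 0.17) and P19-Sox2 (6.66 ± 0.25), of which the last pair overlapped. Ccng1, which encodes cyclin G1, a p53 target that recruits a phosphatase to MDM2, ranged from 12.26 in EpiSox2mL2 to 8.93 in P19-Sox2. Its neighbours in the order were separated on all arrays except EpiSox2mE1 with EpiSCm, Epi-Sox2f with ESCf and P19 EC with F9-Sox2.

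Phlda3, a repressor of AKT signalling, was at 9.96 to 10.73 in the GOF18 male family and 6.80 to 9.04 elsewhere. Its other probe showed no such division, with EpiSox2mE1 (7.98) below ESCf (8.50). Trp53inp1, a nuclear and autophagy-linked protein that promotes p53-dependent cell death, ranged from 11.02 in EpiSox2mL2 to 7.70 in P19-Sox2. Gadd45a, a stress sensor with roles in growth arrest and DNA repair, followed another order. EpiSox2mL2 (10.78), EpiSox2mE2 (10.77) and ESCm (10.72) overlapped at its top, ES cells lay above both EpiSC lines, and P19 EC stood alone at the bottom.

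In EpiSC medium the Sox2-overexpressing GOF18 cells had higher levels of 5 of the 6 tested genes than their parent line. Gadd45a was at 10.89 and 10.67 in EpiSox2mL2 against 9.94 and 9.54 in EpiSCm. Trp53inp1 was at 11.02 and 11.02 against 10.18 and 9.90. Mdm2 was at 12.29 and 12.27 against 11.59 and 11.51. In these genes both EpiSox2mL2 arrays lay above both EpiSCm arrays, and 58.0% of all tested genes did not overlap between these groups. The same was true of Cdkn1a, at 10.48 and 10.56 against 9.86 and 9.69, and of Ccng1, at 12.30 and 12.21 against 11.97 and 11.39. Gadd45a rose 2.06-fold (log2 1.04, limma adjusted p = 3.3e-05), Trp53inp1 1.97-fold (0.98, adjusted p = 0.00024) and Mdm2 1.66-fold (0.73, adjusted p = 0.00031). Cdkn1a rose 1.69-fold (log2 0.75, adjusted p = 0.0022) and Ccng1 1.49-fold (0.57, adjusted p = 0.013). Phlda3 overlapped between the groups (log2 -0.02, adjusted p = 0.97). The members called were 5 of 6 against 24.4% of all tested genes, 12.9% of them higher, with a median of log2 0.74 against -0.01 over all genes. The Cdkn1a and Mdm2 calls were lost when a gene's probes were averaged (log2 0.32 and 0.33). The Mdm2 average includes a probe that was not detected on any array of these groups. Its other well detected probe was at 12.29 in EpiSox2mL2 against 11.75 in EpiSCm. The Ccng1 call was kept in 8 of 13 alternatives and was lost without EpiSCm replicate 2 or EpiSox2mL2 replicate 1. Median scaling, fitting only the compared groups and array sets normalized apart also lost it. On 1 other Ccng1 probe the groups overlapped, at 11.83 and 11.92 in EpiSox2mL2 against 11.88 and 11.60 in EpiSCm. On the remaining Ccng1 probe they did not, at 10.88 and 10.85 against 10.66 and 10.08.

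In ESC medium these levels were lower again. On the probe used all 6 genes were lower in EpiSox2mE1 than in EpiSox2mL2, with no overlap between arrays in any of them, where 64.1% of all tested genes did not overlap, 31.4% were called and 17.3% were lower. Trp53inp1, at 9.51 and 9.20 in EpiSox2mE1, fell 3.17-fold (log2 -1.66, limma adjusted p = 2.2e-07). Mdm2, at 11.19 and 10.95, fell 2.32-fold (log2 -1.21, adjusted p = 4.5e-07), and Cdkn1a, at 9.37 and 9.31, fell 2.27-fold (log2 -1.19, adjusted p = 1.3e-05). Phlda3 (log2 -0.76), Ccng1 (-0.54) and Gadd45a (-0.50) fell less, and these 3 calls were lost without EpiSox2mL2 replicate 1. Without EpiSox2mE1 replicate 2 the Ccng1 and Phlda3 calls were lost, and without EpiSox2mE1 replicate 1 that of Gadd45a. The Gadd45a call was kept in 7 of 13 alternatives. Median scaling, averaged probes, fitting only the compared groups and array sets normalized apart each lost it. On the other Gadd45a probe the arrays overlapped, at 9.52 and 9.03 in EpiSox2mL2 against 9.19 and 9.15 in EpiSox2mE1. The other culture in ESC medium, EpiSox2mE2, had lower Mdm2 (log2 -1.18), Trp53inp1 (-1.21) and Cdkn1a (-0.66) than EpiSox2mL2, 3 of 6 members called and lower, against 35.3% of all genes called and 19.6% lower. Ccng1 was at log2 -0.39 (adjusted p = 0.062) and Phlda3 at -0.52 (adjusted p = 0.068), while Gadd45a was at -0.01. The Cdkn1a call in EpiSox2mE2 was lost when its probes were averaged (log2 -0.29). These comparisons share the EpiSox2mL2 arrays.

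The fibroblast and trophoblast marker sums were higher in ESC medium than in EpiSox2mL2, and the extraembryonic endoderm and neural sums were lower. The summed level of the 6 measured fibroblast and feeder markers, on the linear scale, was 367 to 429 in EpiSox2mL2, 714 to 787 in EpiSox2mE1 and 764 to 914 in EpiSox2mE2, and 3, 4 and 4 of the 6 were detected on both arrays. That of the 4 measured trophoblast markers was 1058 to 1197 in EpiSox2mL2, 1736 to 1878 in EpiSox2mE1 and 1681 to 1716 in EpiSox2mE2. In EpiSCm these fibroblast and trophoblast sums were 297 to 369 and 389 to 396. The trophoblast sum was also high in ES cells, at 3024 to 3140 in ESCm, so it is not particular to trophoblast. The extraembryonic endoderm sum was 461 to 482 in EpiSox2mL2, 352 to 387 in EpiSox2mE1 and 353 to 418 in EpiSox2mE2. The neural sum was 305 to 313, 165 to 219 and 169 to 239 in the same order. The part of such cells in the p53 target differences was not tested.

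Against the parent EpiSCm, which all of these comparisons share, EpiSox2mE1 and EpiSox2mE2 showed a split within the group. Gadd45a rose in both, by log2 0.55 (limma adjusted p = 0.0064) in EpiSox2mE1 and 1.03 (adjusted p = 2.4e-05) in EpiSox2mE2. Mdm2 fell in both, by 0.48 (adjusted p = 0.0060) and 0.45 (adjusted p = 0.0092) on the log2 scale. In EpiSox2mE1 Phlda3 (log2 -0.78), Trp53inp1 (-0.69) and Cdkn1a (-0.43) also fell, which gave 5 of 6 called against 28.9% of all genes, 15.6% of them lower, but 3 without EpiSCm replicate 1, without EpiSCm replicate 2 or without EpiSox2mE1 replicate 2. The Cdkn1a call (limma adjusted p = 0.046) was kept in 3 of 13 alternatives and was lost whichever array was left out. In EpiSox2mE2 2 of 6 were called against 28.7% of all genes, and 1 without EpiSox2mE2 replicate 1. Between the ESC-medium cultures 0 of 6 members passed in limma against 2.38% of all genes, and 3 had an unadjusted p under 0.05. Cdkn1a was at 9.96 and 9.77 in EpiSox2mE2 against 9.37 and 9.31 in EpiSox2mE1 (log2 0.53, adjusted p = 0.094), and Gadd45a at 10.67 and 10.87 against 10.24 and 10.33 (0.48, adjusted p = 0.081). No background correction, or an offset of 50, gave 2 calls each.

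**Figure D2:**
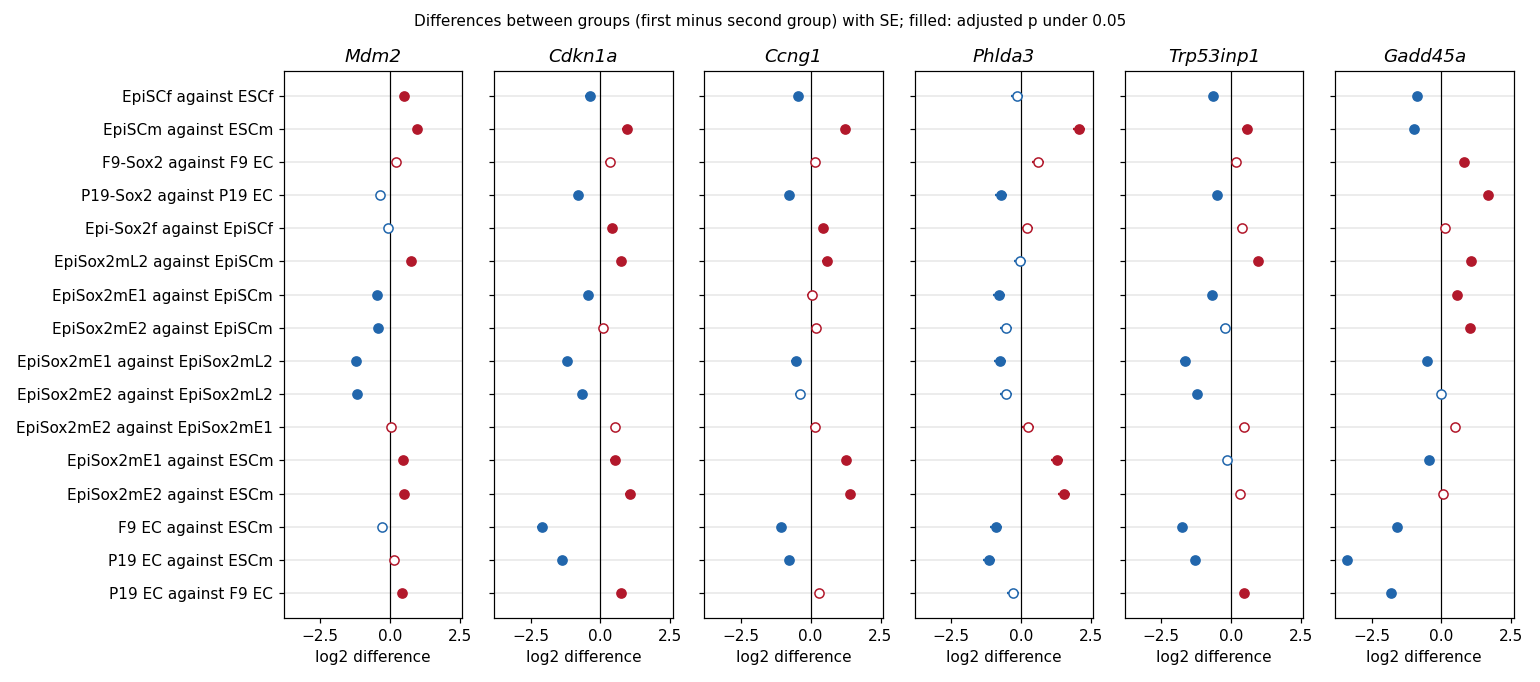
Log2 difference, first minus second group, of each tested member in the 16 comparisons, with its SE as a horizontal bar that is often smaller than the point. Filled points passed adjusted p under 0.05, red is higher and blue lower, and all 6 members are filled and blue for EpiSox2mE1 against EpiSox2mL2.

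Sox2 overexpression went with opposite movements in P19, where Gadd45a rose while 4 of the 6 tested members fell. Gadd45a was at 8.87 and 9.14 in P19-Sox2 against 7.30 and 7.39 in P19 EC, 3.15-fold higher (log2 1.65, limma adjusted p = 2.6e-07), and its other probe also rose (log2 1.24, adjusted p = 0.0066). Cdkn1a was at 6.49 and 6.84 against 7.45 and 7.48, 1.74-fold lower (log2 -0.80, adjusted p = 0.0023). On the other Cdkn1a probe detected here the groups overlapped, at 5.55 and 6.08 against 5.80 and 6.17. The remaining Cdkn1a probe was not detected on any array of these groups. Ccng1 was at 8.86 and 8.99 against 9.77 and 9.61, 1.69-fold lower (log2 -0.76, adjusted p = 0.0035). On the probe used no array of one group lay within the other in these 3 genes, as in 53.5% of all tested genes. All 3 Ccng1 probes fell, by log2 -0.76 to -0.80. Phlda3 (log2 -0.70, adjusted p = 0.043) and Trp53inp1 (-0.50, adjusted p = 0.0498) also fell, and Mdm2 was at log2 -0.37 (adjusted p = 0.057). The Trp53inp1 call was kept in 3 of 13 alternatives and was lost whichever array was left out, and the Phlda3 call was kept in 7 of 13. The members called were 5 of 6, 4 of them lower, where 10.5% of all tested genes were called and 4.53% were lower. Without P19 EC replicate 2, or without P19-Sox2 replicate 1, 3 of 6 were called.

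In F9 cells the rise of Gadd45a was the single call among the 6 members, against 9.89% of all genes called and 5.39% higher. It was at 9.95 and 9.95 in F9-Sox2 against 9.22 and 9.06 in F9 EC (1.76-fold, log2 0.81, limma adjusted p = 0.00065). Its other probe was at log2 0.45 (adjusted p = 0.42). Phlda3 was at 8.44 and 8.33 against 7.70 and 7.85 (log2 0.61, adjusted p = 0.084), and its other probe rose by log2 1.09 (adjusted p = 0.00016). Cdkn1a (log2 0.33), Mdm2 (0.21), Ccng1 (0.17) and Trp53inp1 (0.17) did not pass.

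The effect in F9 differed from that in P19 for 5 of 6 members when the difference itself was tested, where 10.1% of all genes were called and 4.85% were higher in F9. These pairs share no array. Phlda3 differed by 1.32 (SE 0.30, limma adjusted p = 0.0084), Cdkn1a by 1.13 (SE 0.22, adjusted p = 0.0025), Ccng1 by 0.93 (SE 0.22, adjusted p = 0.010) and Mdm2 by 0.58 (SE 0.17, adjusted p = 0.038) on the log2 scale, each higher in F9. Gadd45a differed by -0.84 (SE 0.20, adjusted p = 0.0094), since it rose more in P19. The Mdm2 call was kept in 7 of 17 alternatives, and that of Cdkn1a in all 17. Leaving out either P19 EC array, or P19-Sox2 replicate 2, left 3 of the 5.

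Setting GOF18 EpiSCs in EpiSC medium against P19, the effects of Sox2 overexpression differed for 5 of 6 members, against 18.6% of all genes, 9.75% higher in the EpiSCs. Cdkn1a differed by 1.55 (SE 0.22, limma adjusted p = 9.7e-05), Trp53inp1 by 1.48, Ccng1 by 1.33 and Mdm2 by 1.11 on the log2 scale, each higher in the EpiSCs, and Gadd45a by -0.61 (SE 0.20, adjusted p = 0.039). The Gadd45a call was kept in 5 of 16 alternatives, and each of the other 4 in all 16.

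On the arrays labelled Epi-Sox2f, 2 of 6 members were called against EpiSCf, both higher, where 29.2% of all genes were called and 13.7% were higher. Ccng1 was at 10.91 and 10.58 against 10.28 and 10.29 (log2 0.46, limma adjusted p = 0.035) and Cdkn1a at 9.47 and 9.08 against 8.71 and 8.99 (0.43, adjusted p = 0.048). On 1 other Ccng1 probe Epi-Sox2f was lower, at 9.76 and 9.73 against 9.95 and 9.91. On the remaining Ccng1 probe it was higher, at 11.21 and 11.15 against 10.83 and 10.45. The Ccng1 call was kept in 7 of 13 alternatives, and that of Cdkn1a in 5. Trp53inp1 was at log2 0.37, Phlda3 at 0.21, Gadd45a at 0.13 and Mdm2 at -0.09. No member was called without EpiSCf replicate 1 or without Epi-Sox2f replicate 1, and 1 was called without EpiSCf replicate 2. The effect in GOF18 EpiSCs in EpiSC medium was larger than here for Gadd45a (difference 0.92, SE 0.20, adjusted p = 0.0018), Mdm2 (0.82, SE 0.17, adjusted p = 0.0014) and Trp53inp1 (0.61, SE 0.22, adjusted p = 0.045), 3 of 6 against 32.4% of all genes called and 17.3% larger. The Trp53inp1 difference was kept in 3 of 16 alternatives.

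The epiblast and ES states differed in these genes, but not alike in the female and the male line. In the male line 5 of 6 members were higher in EpiSCm than in ESCm and Gadd45a was lower, all 6 called where 70.0% of all genes were called and 41.3% were higher. Phlda3 averaged 10.73 ± 0.38 in EpiSCm, with its lower array at 10.46, against 8.70 and 8.62 in ESCm, 4.22-fold higher (log2 2.08, limma adjusted p = 9.7e-08). The other Phlda3 probe differed less, at 9.02 in EpiSCm against 8.07 in ESCm. Ccng1 was 2.36-fold higher (log2 1.24), Cdkn1a and Mdm2 each 1.93-fold (0.95) and Trp53inp1 1.47-fold (0.55). The other Cdkn1a probes were at 7.61 in EpiSCm against 7.46 in ESCm and at 7.84 against 6.55. The other Trp53inp1 probe went the opposite way (log2 -2.93, adjusted p = 7.7e-09), as did the mean of its probes (-1.19). Gadd45a was 1.98-fold lower (log2 -0.98, adjusted p = 5.3e-06). In the female line Gadd45a was likewise lower, at 9.40 and 9.37 in EpiSCf against 10.24 and 10.24 in ESCf (1.81-fold, log2 -0.86, adjusted p = 3.4e-05), and Mdm2 was higher (log2 0.50, adjusted p = 0.0017). On the probe used Trp53inp1 (log2 -0.64), Ccng1 (-0.45) and Cdkn1a (-0.39) were lower in EpiSCf. The other Ccng1 probes were at 10.64 in EpiSCf against 10.56 in ESCf and at 9.93 against 10.05. Averaging the Ccng1 probes lost that call (log2 -0.16). In the main fit 5 of 6 were called, where 60.3% of all genes were called and 27.4% were lower. Leaving out ESCf replicate 1, ESCf replicate 2 or EpiSCf replicate 1 left 3 of these 5, and median scaling left 2, without Trp53inp1, Ccng1 and Cdkn1a.

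Tested directly, the female difference was below the male one for 5 of 6 members, against 50.9% of all genes called and 27.8% lower. Phlda3 differed by -2.20 (SE 0.30, limma adjusted p = 9.1e-06), Ccng1 by -1.69, Cdkn1a by -1.34, Trp53inp1 by -1.19 and Mdm2 by -0.45 on the log2 scale, and Gadd45a by 0.13 (adjusted p = 0.61). With its probes averaged the Trp53inp1 difference turned to 0.29. The male comparison crosses the array sets, and median scaling in place of quantile normalization moved the median of all genes there by -0.35, turning the split of calls from 59.0% higher to 38.7% higher. Under median scaling Phlda3, Ccng1, Cdkn1a and Mdm2 were still called higher in EpiSCm and Gadd45a lower, while Trp53inp1, which was also lost without EpiSCm replicate 1, was not called and the Mdm2 difference between the lines changed sign to 0.20. The feeder marker sum was 896 to 964 in ESCm and 1045 to 1135 in ESCf against 297 to 369 in EpiSCm and 374 to 383 in EpiSCf, and its part was not tested.

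Both ESC-medium cultures kept higher levels than ESCm of Ccng1 (log2 1.27 in EpiSox2mE1 and 1.42 in EpiSox2mE2) and Phlda3 (1.30 and 1.54) in limma and in each of 12 alternatives. On the other Phlda3 probe the differences were log2 -0.09 (adjusted p = 0.63) and 0.46 (adjusted p = 0.017). The other Ccng1 probes differed less, at 10.64 and 10.92 against 10.07 in ESCm and at 10.34 and 10.47 against 9.96. Mdm2 (log2 0.47 and 0.50) and Cdkn1a (0.52 and 1.04) were also called higher, and Gadd45a was lower in EpiSox2mE1 (-0.44). On 1 other Cdkn1a probe the cultures were not both higher, at 7.16 in EpiSox2mE1 and 7.51 in EpiSox2mE2 against 7.46 in ESCm. On the remaining Cdkn1a probe they were at 7.30 and 7.93 against 6.55. The members called were 5 of 6 in EpiSox2mE1, against 67.4% of all genes (39.2% higher), and 4 of 6 in EpiSox2mE2, against 65.7% (37.7% higher). In EpiSox2mE1 the Cdkn1a call was lost without ESCm replicate 2 and that of Gadd45a without EpiSox2mE1 replicate 1. Median scaling moved the median of all genes by -0.41 and -0.61 here, and under it Mdm2 changed sign in both cultures (log2 -0.06 and -0.28) and Cdkn1a in EpiSox2mE1 (-0.03), while the Cdkn1a call in EpiSox2mE2 was lost (0.23, adjusted p = 0.32). These comparisons share the ESCm arrays and cross the array sets.

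Embryonal carcinoma lines had lower levels than ESCm of every tested member but Mdm2. Gadd45a was at 7.30 and 7.39 in P19 EC and at 9.22 and 9.06 in F9 EC, against 10.73 and 10.72 in ESCm. Cdkn1a was at 7.45 and 7.48 in P19 EC and at 6.61 and 6.85 in F9 EC, against 8.94 and 8.71. The arrays did not overlap in either gene, as in 81.4% of all tested genes for P19 EC and 77.5% for F9 EC. Gadd45a was 10.4-fold lower in P19 EC (log2 -3.37, limma adjusted p = 4.4e-13) and also lower in F9 EC (log2 -1.58, adjusted p = 3.9e-08). Cdkn1a was 2.57-fold lower in P19 EC (log2 -1.36, adjusted p = 6.4e-07) and 4.28-fold lower in F9 EC (log2 -2.10, adjusted p = 4.6e-09). Trp53inp1 was 2.45-fold and 3.38-fold lower, Phlda3 2.22-fold and 1.84-fold, and Ccng1 1.69-fold and 2.08-fold, in P19 EC and F9 EC in that order.

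Mdm2, the antagonist of p53, was the exception, at 10.75 and 10.75 in P19 EC and 10.36 and 10.28 in F9 EC against 10.67 and 10.54 in ESCm (log2 0.15 and -0.28, limma adjusted p = 0.32 and 0.065). Its other well detected probe was lower in both, by log2 -0.63 (adjusted p = 0.00024) and -0.67 (adjusted p = 0.00020). The members called were 5 of 6 in P19 EC, against 56.7% of all genes (27.5% lower), and 5 of 6 in F9 EC, against 48.5% (23.8% lower), and each of these 10 calls was kept in all 13 alternatives. The feeder marker sum was 187 to 196 in F9 EC and 235 to 236 in P19 EC, with 1 and 2 of 6 markers detected on both arrays, against 896 to 964 and 6 of 6 in ESCm, and its part was not tested. Between the carcinoma lines 4 of 6 members were called, against 55.2% of all genes (28.1% higher): Cdkn1a (log2 0.74), Trp53inp1 (0.47) and Mdm2 (0.43) were higher in P19 EC, and Gadd45a was 3.46-fold lower (log2 -1.79). The Trp53inp1 call was lost without F9 EC replicate 1 or P19 EC replicate 1.

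Probes of one gene did not always move together. Of the 16 probes, 1 for Mdm2 was detected on 4 of 24 arrays, and it is set aside here. Gadd45a was read most alike, with r = 0.98 between its probes over the 12 group means. The 2 other Cdkn1a probes followed the one used at r = 0.94 and 0.93, the Phlda3 pair at 0.91 and the Mdm2 pair at 0.90. Gaps between probes still shifted for some genes in the GOF18 male family. The Cdkn1a probe used was 2.16 to 2.91 above 1 other probe there, against 0.85 to 1.97 elsewhere. For Phlda3 the other probe minus the one used was -1.98 to -1.66 there, against -1.61 to -0.45. The gaps of the Mdm2 pair and 1 Ccng1 pair were also apart, so differences across array sets depend on the probe. The gaps overlapped for Gadd45a, the other Ccng1 pairs and the remaining Cdkn1a probe against the one used. The Trp53inp1 probes did not follow each other over all groups (r = -0.07). In 8 groups the probe used was 0.12 to 0.86 log2 units above the other, and in the 4 groups of the GOF18 male family it was 3.79 to 4.40 above it. The other probe read 6.44 and 6.07 in EpiSCm against 9.21 and 9.16 in ESCm (log2 -2.93, limma adjusted p = 7.7e-09), where the probe used rose. Within the GOF18 family the group means of both Trp53inp1 probes fell from EpiSox2mL2 to EpiSox2mE1 (log2 -1.66 and -1.37) and to EpiSox2mE2 (-1.21 and -0.82). The other probe was close to background there, at 5.26 ± 0.52 in EpiSox2mE1, with 1 of 2 arrays detected, and 5.81 ± 0.18 in EpiSox2mE2. Its EpiSox2mL2 arrays also spread widely (6.62 ± 0.60), so the size of its falls is uncertain. Both Mdm2 probes fell (log2 -1.21 and -1.10 to EpiSox2mE1), as did all 3 Ccng1 probes (-0.54, -1.24 and -0.52 to EpiSox2mE1). For Cdkn1a 1 other probe fell to EpiSox2mE1 (log2 -0.75, adjusted p = 0.0041) and neither was called for EpiSox2mL2 against EpiSCm (log2 0.01 and 0.21). Where a Ccng1 probe was level between EpiSox2mE1 and EpiSCm (log2 0.03), another fell (-1.10, adjusted p = 3.6e-05). In Epi-Sox2f against EpiSCf the other well detected Mdm2 probe fell (log2 -0.71, adjusted p = 0.00037), while the probe used was at -0.09.

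**Figure D3:**
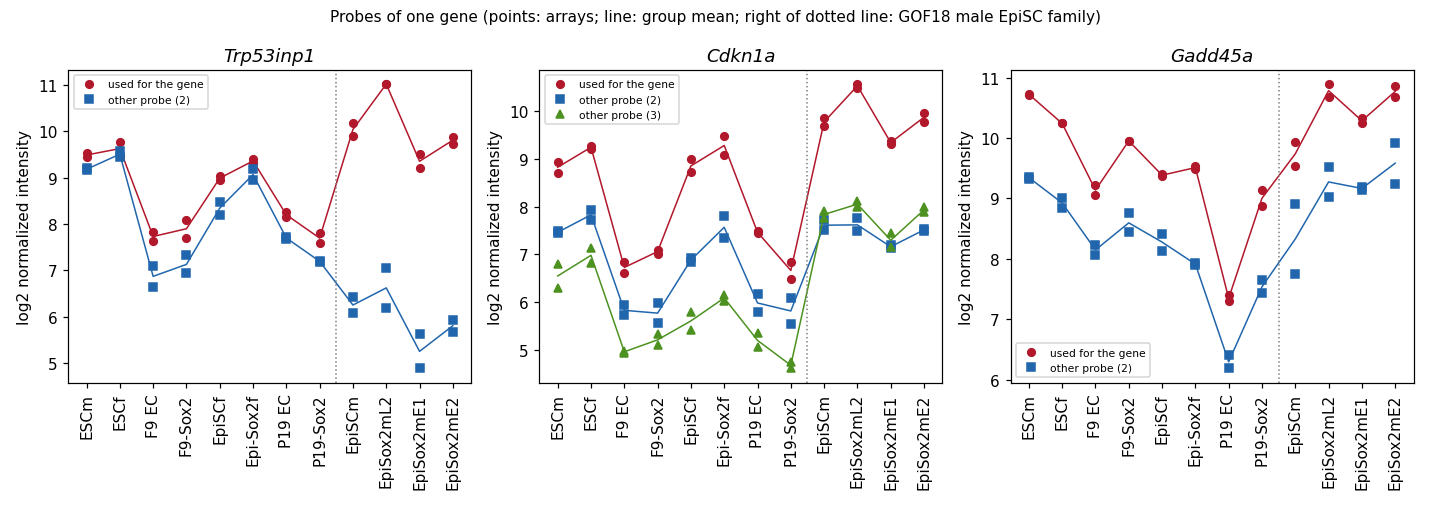
Log2 normalized intensity of each probe of Trp53inp1, Cdkn1a and Gadd45a on each array, with a line through the group means. The Trp53inp1 probes lie 0.12 to 0.86 apart left of the dotted line and 3.79 to 4.40 apart in the GOF18 male EpiSC family to its right.

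Genes whose group means followed a member most closely were sought among 7881 genes that spanned at least 1 log2 unit. For Cdkn1a the closest were 2 fellow members, Trp53inp1 (r = 0.98 over 12 groups) and Ccng1 (0.95), and for Trp53inp1 they were Cdkn1a (0.98) and F2r (0.94), which encodes a thrombin receptor. Ccng1 was followed by Thyn1 (r = 0.97) and Phlda3 (0.97), and Phlda3 by Ccng1 (0.97) and Kif18b (0.96), a mitotic kinesin. Mdm2 was followed by Bbs4 (r = 0.97), a component of the BBSome at the cilium, and Rbms2 (0.96), and Gadd45a by Dgka (0.93) and Fblim1 (0.92). The groups share lines and array sets, so these values describe the 12 groups and no more.

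The other listed p53 targets, 33 tested of 39, were read for the same comparisons. In EpiSox2mL2 10 rose and 0 fell against EpiSCm, with a median of log2 0.30 against -0.01 over all genes. Of all tested genes 24.4% were called there, and 12.9% were higher. Pmaip1, which encodes the BH3-only protein NOXA, rose by log2 1.17 (SE 0.19, limma adjusted p = 0.00023) and Ptp4a3, a phosphatase of the PRL family, by 1.15 (adjusted p = 6.8e-05). Under median scaling 4 rose, with only the compared groups fitted 5, and with the array sets normalized apart 6. In EpiSox2mE1 20 fell and 1 rose against EpiSox2mL2, with a median of -0.76 against 0.00. In EpiSox2mE2 17 fell and 1 rose, with a median of -0.47 against -0.01. All tested genes were called at 31.4% and 35.3% in these comparisons, and were lower at 17.3% and 19.6%. Ptp4a3 fell by log2 1.48 and 1.28, Apaf1, the caspase-activating scaffold of the apoptosome, by 1.21 and 1.24. The gene that rose in both was Epha2, an ephrin receptor (log2 1.20 and 1.40). The number that fell was 15 to 22 and 14 to 19 over 13 alternatives, and the median was negative in each.

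In the carcinoma lines the same list fell more often than it rose, with 11 lower and 4 higher in F9 EC (median -0.08 against 0.02 over all genes) and 15 lower and 4 higher in P19 EC (median -0.29 against 0.02), each against ESCm. The 15 and 19 called of 33 lay near the 48.5% and 56.7% of all tested genes called there. Without ESCm replicate 2 the F9 EC counts were 7 and 1, and without F9 EC replicate 2 they were 9 and 1. Ei24, an apoptosis and autophagy protein, was lower by log2 -1.30 and -2.38. Pmaip1 was not well above background in either line and at least 2.32-fold and 2.41-fold lower, and Tigar, a regulator of glycolysis, was at least 4.52-fold lower in P19 EC. In P19-Sox2 1 of the 33 rose (Sesn2, log2 0.83) and 1 fell (Xpc, a DNA repair sensor, log2 -0.60). In F9-Sox2 1 rose (Bbc3, which encodes PUMA, log2 1.11). Of all tested genes 10.5% and 9.89% were called there, a larger share than in this list.

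**Figure D4:**
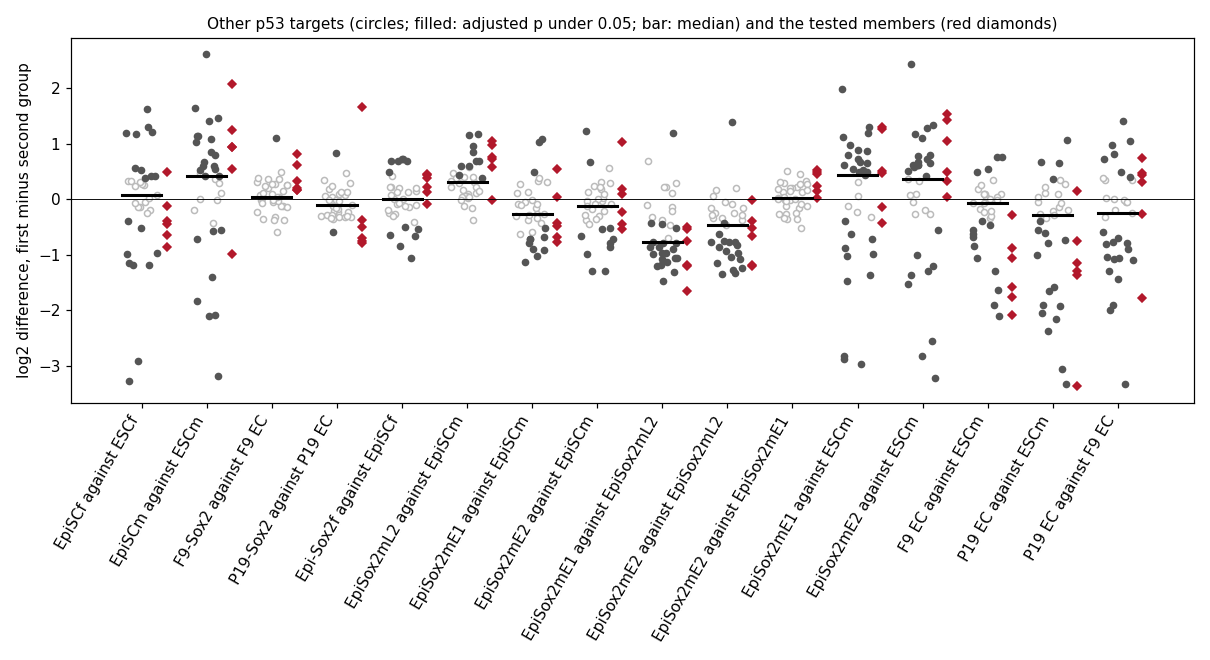
Log2 difference, first minus second group, of the 33 tested other p53 targets (circles, filled at adjusted p under 0.05, with a bar at their median) and of the 6 tested members (red diamonds) in the 16 comparisons. The bar lies at -0.76 for EpiSox2mE1 against EpiSox2mL2 and at 0.30 for EpiSox2mL2 against EpiSCm.

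Genes around the pathway were read in the same way. Of 19 tested p53 regulators, Mdm4, the partner of Mdm2 in restraining p53, was not well above background in EpiSCm, and its level was at least 1.39-fold higher in EpiSox2mL2 and at least 1.37-fold higher in EpiSox2mE1. Cdkn2a, the Ink4a and Arf locus, was not well above background in EpiSox2mE1 or EpiSox2mE2 and at least 1.42-fold and 1.43-fold lower there than in EpiSox2mL2. Of these regulators 4 rose and 1 fell in EpiSox2mL2 against EpiSCm, and against EpiSox2mL2 2 rose and 1 fell in EpiSox2mE1 and 4 rose and 1 fell in EpiSox2mE2. All tested genes were called at 24.4%, 31.4% and 35.3% there, so 5, 3 and 5 of 19 were near or below that share. Of 6 tested genes of the CDK inhibitors and GADD45 family, Gadd45g rose by log2 2.15 in EpiSox2mL2 against EpiSCm and fell by 2.72 and 1.34 from there in EpiSox2mE1 and EpiSox2mE2, and against ESCm it was at least 13.7-fold lower in P19 EC and lower by log2 -3.73 in F9 EC. Counts for this list were 3 up and 0 down in EpiSox2mL2, 0 up and 3 down in EpiSox2mE1, and 5 of 6 and 4 of 6 lower in P19 EC and F9 EC. All tested genes were called higher at 12.9% in EpiSox2mL2. They were called lower at 17.3% in EpiSox2mE1, 27.5% in P19 EC and 23.8% in F9 EC.

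Of 11 tested G2 and mitosis genes that p21 is known to hold down, 0 passed in EpiSox2mE1 or EpiSox2mE2 against EpiSox2mL2 in limma, with 0 and 1 at an unadjusted p under 0.05, and Top2a alone was called, and lower, in EpiSox2mL2 against EpiSCm (log2 -0.37). Of 20 tested BCL2 family and caspase genes, 1 rose and 6 fell in EpiSox2mE1 and 2 rose and 8 fell in EpiSox2mE2 against EpiSox2mL2, 7 and 10 of 20 against 31.4% and 35.3% of all tested genes called. Among 12 tested genes of the integrated stress response 7 fell in each of these comparisons, led by Chac1, a glutathione-degrading enzyme (log2 -1.85 and -1.93). All tested genes were lower at 17.3% and 19.6% there. In the carcinoma lines the stress list went the other way from the p53 targets. Of its 12 genes 9 were higher in F9 EC and 10 in P19 EC than in ESCm. All tested genes were called at 48.5% and 56.7% there, with 50.9% and 51.6% of those calls higher. Chac1 was higher by log2 3.17 and 2.94. Of 8 tested desmosome and epithelial junction genes, the setting in which Perp acts, 5 rose and 0 fell in P19-Sox2. In each ESC-medium culture 0 rose and 5 fell against EpiSox2mL2. Krt8 was at log2 1.31 in P19-Sox2, -2.08 in EpiSox2mE1 and -1.77 in EpiSox2mE2. Of all tested genes 10.5% were called in P19-Sox2, with 56.7% of those calls higher. Against EpiSox2mL2 17.3% were lower in EpiSox2mE1 and 19.6% in EpiSox2mE2.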

How the data were processed

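Total RNA of 24 mouse cell samples was measured on Illumina MouseRef-8 v2 arrays, with 300 ng of RNA per amplification per the labels. The authors deposited an intensity and a detection p-value for each of 25697 probes on each array, and separately processed log2 values. BeadStudio 3.2, RMA and lumi appear in the submitters' processing notes without a stated role. The deposited log2 values share a median of 3.68 on every array, and how they were made is not stated, so they served as an alternative.

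Intensities were corrected with the normexp model of limma 3.58.1 (R 4.3.3), with the background taken from the detection p-values and an offset of 16, quantile normalized over the 24 arrays and log2 transformed. A probe had to reach detection p under 0.01 on each array of 1 group or more (13082 probes did), and a gene is its kept probe of highest mean (8932 genes). Of the probes 23978 had 1 gene symbol, 0 had several and 1719 had none. Limma fitted 12 group means with 12 residual degrees of freedom, moderated the variances and adjusted p-values by Benjamini-Hochberg within each of 16 comparisons and 4 differences of effects. The series text calls arrays of a group biological replicates, and nothing names separate cultures, so p-values measure the spread between these samples, which may be technical.

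For a probe detected on no array of the dimmer group, the fold is a lower bound against the detection limit of its arrays. The number of arrays limits the precision. Fits were tested on simulated data. Named genes were all members with every probe, the 2 genes closest to each member in group means, and up to 4 called genes of largest change per context list and comparison. Members and lists were chosen with earlier results of these data known. Promoter windows came from RefSeq GRCm38.p6, and of other motifs searched on both strands, the CCAAT box occurs in 37.4% of all windows, a GC box (GGGCGG) in 35.7% and a TATA box (TATAAA) in 13.6%. No promoter window is printed for Trp53inp1 (gene at chr4:11156441-11174379) or Perp (gene at chr10:18845071-18857073). Alternatives covered scaling, background correction, the detection filter, probe choice, the arrays fitted, a replicate block and leaving out each array. Fitting each probe by itself, and the alternatives for the other p53 targets, were chosen after seeing the data. Fitting each probe by itself, and the alternatives for the other p53 targets, were chosen after seeing the data. Fitting each probe by itself, and the alternatives for the other p53 targets, were chosen after seeing the data. Fitting each probe by itself, and the alternatives for the other p53 targets, were chosen after seeing the data.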

Additional observations from a re-analysis of the deposited data

Results flagged for a closer look

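Effects of the same contrast that differed between lines by a limma test of the difference (adjusted p under 0.05 over all genes) are given here as log2 differences of effects. For EpiSC against ES cells, the female effect minus the male one was -0.45 for Mdm2, -1.19 for Trp53inp1, -1.34 for Cdkn1a, -1.69 for Ccng1 and -2.20 for Phlda3. The male effect crosses the array sets, so line and array set cannot be told apart. For Sox2 overexpression, the F9 effect minus the P19 effect was 0.58 for Mdm2, 1.13 for Cdkn1a, 0.93 for Ccng1, 1.32 for Phlda3 and -0.84 for Gadd45a. The effect in GOF18 EpiSCs in EpiSC medium minus that on the arrays labelled Epi-Sox2f was 0.82 for Mdm2, 0.61 for Trp53inp1 and 0.92 for Gadd45a. The same GOF18 effect minus the P19 effect was 1.11 for Mdm2, 1.48 for Trp53inp1, 1.55 for Cdkn1a, 1.33 for Ccng1 and -0.61 for Gadd45a. Groups of 2 arrays were too small to test for a single array far from the rest.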

How the results depend on the processing

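Every member result was recomputed under 12 to 17 alternatives. Over the single-gene results 1425 values stayed on their side of the threshold, 150 lost and 36 gained a call, and 9 changed sign where called in either setting. A further 33 values that were called in neither setting also changed sign. The 9 came with median scaling for Cdkn1a (log2 -0.033) and Mdm2 (-0.057) in EpiSox2mE1 against ESCm, for Mdm2 (-0.28), Trp53inp1 (-0.50) and Gadd45a (-0.75) in EpiSox2mE2 against ESCm, and for Mdm2 in the female minus male difference (0.20). Averaging a gene's probes turned Trp53inp1 in EpiSCm against ESCm (-1.19), in EpiSox2mE2 against ESCm (-1.53) and in the female minus male difference (0.29). These 9 set the GOF18 male family against other lines, and the cause was not tested.

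Counts of members called that moved by over 1.5 times were as follows. Median scaling gave 2 for EpiSCf against ESCf, 0 for Epi-Sox2f against EpiSCf, 3 for EpiSox2mE1 against EpiSCm, 2 for P19 EC against F9 EC, 3 for the female minus male difference, 3 for F9 minus P19 and 1 for GOF18 minus Epi-Sox2f. The mean of the probes gave 3 for EpiSCf against ESCf, 2 for F9-Sox2 against F9 EC, 3 for EpiSox2mL2 against EpiSCm, 3 for the female minus male difference and 3 for F9 minus P19. Fitting only the groups compared gave 2 for F9-Sox2, 3 for P19-Sox2, 1 for Epi-Sox2f, 1 for EpiSox2mE1 and 1 for EpiSox2mE2, each against its parent, and array sets normalized apart gave 1 for Epi-Sox2f, 2 for EpiSox2mE1 and 1 for EpiSox2mE2. No background correction gave 2 for F9-Sox2, and both it and an offset of 50 gave 5 for EpiSox2mE2 against EpiSox2mL2 and 2 for EpiSox2mE2 against EpiSox2mE1. The authors' log2 values gave 3 for P19-Sox2 and 1 for Epi-Sox2f, and no detection filter gave 3 and 0.

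Leaving out 1 array gave 3 to 4 for EpiSCf against ESCf, 3 to 4 for P19-Sox2, 0 to 2 for Epi-Sox2f, 3 to 4 for EpiSox2mE1 against EpiSCm, 1 to 3 for EpiSox2mE2 against EpiSCm, 3 to 6 for EpiSox2mE1 against EpiSox2mL2 and 3 to 5 for F9 minus P19. With the replicate number as a block, a number that arrays share without being paired (deviations from the group means correlated at -0.17 to 0.07), Epi-Sox2f against EpiSCf gave 1 in place of 2, P19-Sox2 gave 4 in place of 5, EpiSox2mE1 against EpiSCm 4 in place of 5 and GOF18 minus Epi-Sox2f 2 in place of 3, and the other 16 counts did not move.

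Median scaling moved the median of all genes by -0.23 for EpiSox2mE2 against EpiSCm, -0.15 against EpiSox2mL2 and -0.17 against EpiSox2mE1, by 0.17 for EpiSCf against ESCf, by -0.35 for EpiSCm against ESCm, by -0.41 and -0.61 for EpiSox2mE1 and EpiSox2mE2 against ESCm and by 0.57 for the female minus male difference. The share of calls that were higher then went from 54.5% to 39.7% in F9-Sox2, 56.7% to 39.8% in P19-Sox2, 46.99% to 36.7% in Epi-Sox2f, 52.98% to 40.3% in EpiSox2mL2, 45.9% to 32.7% in EpiSox2mE1 and 43.8% to 12.0% in EpiSox2mE2, each against its parent. It went from 54.6% to 65.5% for EpiSCf against ESCf, from 58.2% to 31.7% and 57.3% to 21.1% for EpiSox2mE1 and EpiSox2mE2 against ESCm, from 44.4% to 16.1% for EpiSox2mE2 against EpiSox2mL2, from 46.9% to 11.7% against EpiSox2mE1 and from 45.5% to 77.9% for the female minus male difference. Counts over all genes also moved by over 1.5 times. With only the compared groups fitted, they went from 936 to 619 for P19-Sox2, to 737 for EpiSox2mL2, from 2580 to 1397 for EpiSox2mE1 and 2562 to 849 for EpiSox2mE2 against their parents, 3150 to 1776 for EpiSox2mE2 against EpiSox2mL2, 213 to 10 for EpiSox2mE2 against EpiSox2mE1 and 1663 to 970 for GOF18 minus P19 (978 under median scaling). With array sets normalized apart they were 1152 for EpiSox2mL2, 1654 for EpiSox2mE1 and 1652 for EpiSox2mE2 against EpiSCm, 1862 in place of 2801 for EpiSox2mE1 against EpiSox2mL2 and 29 for EpiSox2mE2 against EpiSox2mE1. Leaving out 1 array took F9-Sox2 from 883 to as few as 482, P19-Sox2 to 485, Epi-Sox2f from 2607 to 1524, EpiSox2mL2 to 1162, EpiSox2mE2 against EpiSox2mE1 to 100 and GOF18 minus P19 to 1053. A slide block was not run because the files used here name no slide. Signal near background limits the Perp probe and 1 Mdm2 probe, and 2 arrays per group limit every call.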
